A study of Rattus norvegicus with 6 samples.

Results

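The prolactin, growth hormone and insulin-like growth factor (IGF) axis was examined in the rat thyroid through 10 genes, picked by symbol for their roles. They are the prolactin receptor Prlr, the growth hormone receptor Ghr, the ligands Igf1 and Igf2, the receptors Igf1r and Igf2r, and the binding proteins Igfbp2, Igfbp3, Igfbp4 and Igfbp5. All 10 were found among the 15388 genes of the count tables, and all 10 had enough reads for the test. Thyroid RNA was sequenced from adult Sprague-Dawley females that were non-pregnant (NP) or on day 18 of pregnancy (late pregnancy, LP), with 3 samples in each group. Day 1 was the day of the vaginal plug, and the labels name no transgene or drug treatment. The question was which genes of this axis differ between the LP and the NP thyroid.

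Prolactin and growth hormone act through related cytokine receptors that carry no kinase of their own and use the kinase JAK2 and the transcription factors STAT5A and STAT5B. IGF1, which growth hormone induces in many tissues, and IGF2 act through the tyrosine kinase receptor IGF1R and the insulin receptor, while IGF2R takes IGF2 to the lysosome. The binding proteins hold IGFs in the blood and in the matrix and can lower or raise their action. Thyroid follicular cells are known to respond to IGF1 and insulin together with thyroid-stimulating hormone, and in pregnant rodents the placenta releases lactogens that bind the prolactin receptor.

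Depth was between 2752144 and 3449857 counted reads per sample, and the detection floor, set at 3 reads of a gene, equalled 0.870 to 1.09 CPM (counts scaled to equal library size). Levels below are CPM scaled by the trimmed mean of M-values (TMM), which sets the libraries level on the genes that change least. In both groups, replicates 2 and 3 agreed within sampling noise (chi-square per degree of freedom 1.02, p = 0.111, for NP and 0.995, p = 0.667, for LP), whereas replicate 1 differed from them (3.70 to 4.11). Each mean ± SD thus takes the average of replicates 2 and 3 as 1 sample, which gives n = 2 per group. This SD leaves out the spread between replicates 2 and 3 and can be smaller than the spread of the 3 samples. The p-values rest on the 6 samples as deposited and so measure only the spread between these samples, which may be partly technical. All 10 follicular cell markers were detected, with a summed level of 231463 to 249995 CPM in NP and 241613 to 258238 CPM in LP. Most of this sum was Tg, at 223051 to 241017 CPM in NP and 233743 to 249786 CPM in LP. Of the 10 markers, 2 were higher in LP (Nkx2-1 and Duox2) and 3 lower (Slc5a5, Tshr and Dio1). Over all tested genes, 15.3% were higher and 11.7% lower. The tissue also held markers of C cells (6 of 6 in the tables) and of parathyroid (3 of 3). Of 24 skeletal muscle fibre markers, 19 were in the tables. Their summed level was 36.8 to 85.4 CPM in NP and 6371 to 6735 CPM in LP, and 16 of the 17 tested were higher in LP. The exception was Acta1, which had 0 reads in replicate 1 of both groups. In replicates 2 and 3 it was at 54.4 and 47.3 CPM in NP and at 55.1 and 54.9 CPM in LP. Myh1, a fast fibre myosin, was at 0 in every NP sample. None of 8 tested macrophage and 5 tested adipocyte markers passed the test, and no lymphocyte marker had enough reads for the test. In bulk tissue, fewer cells of a type and less RNA per cell cannot be told apart.

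In LP, 7 of the 10 genes rose and none fell at a cutoff of an adjusted p-value of 0.05 in edgeR's quasi-likelihood test. These were Igf2, Igf1, Ghr, Igf2r, Igfbp2, Igfbp4 and Igfbp5. Over all 11738 genes tested, 15.3% were higher in LP by the same rule and 27.0% changed in either direction. The median log2 fold change of the 10 genes was 0.52, beside -0.0089 over all genes tested. Only Igf2 also passed a fold change of 2, which 5.44% of all tested genes passed in either direction and 4.90% upwards. In 7 of the 10 genes every LP sample lay above every NP sample, as in 21.1% of all tested genes. These 7 genes included Prlr, which did not pass the test, and left out Igf1, which did. Over all genes, groups without overlap in either direction made up 40.1%.

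**Figure D1:**
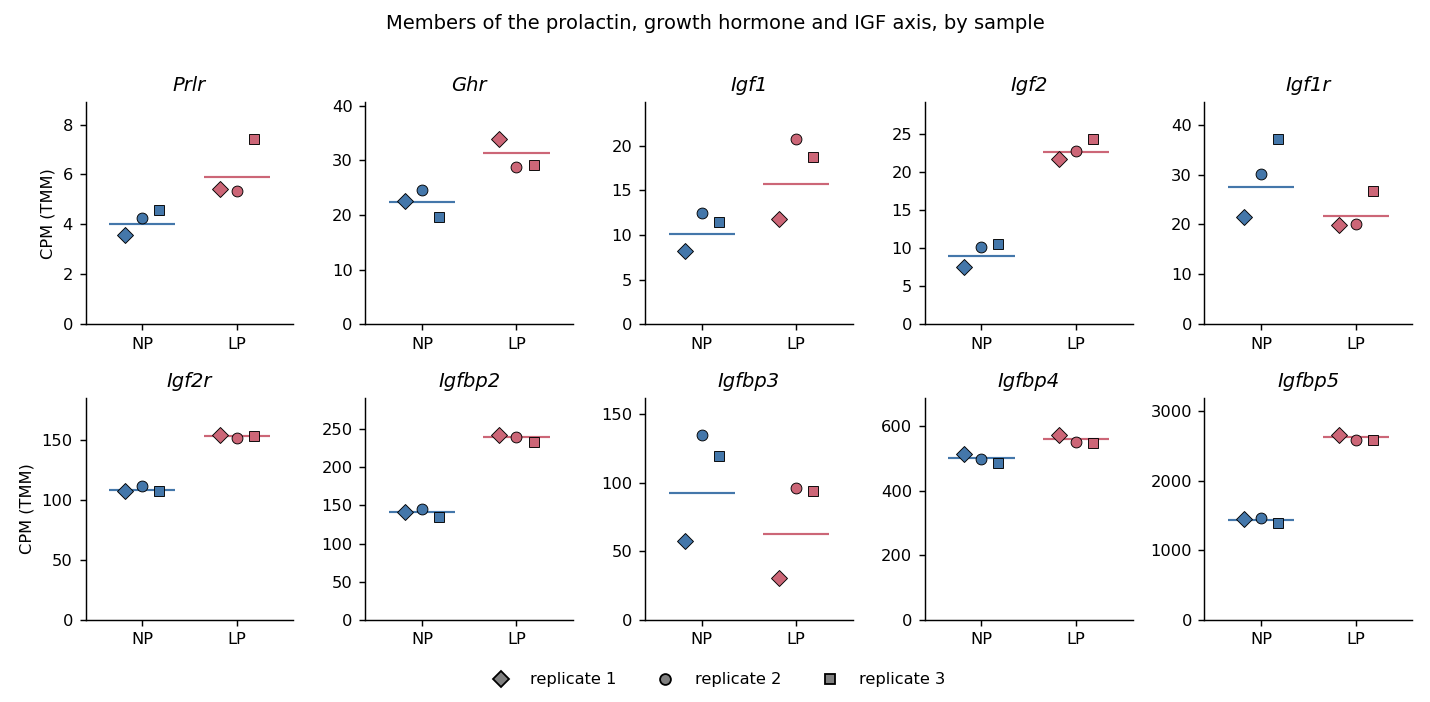
Level of each of the 10 genes in each sample, in TMM-scaled CPM on axes that start at 0, with NP in blue and LP in red. Diamonds, circles and squares are replicates 1, 2 and 3, and lines are group means with replicates 2 and 3 counted as 1 sample. Prlr, Ghr, Igf2, Igf2r, Igfbp2, Igfbp4 and Igfbp5 show groups that do not overlap, while Igfbp3 is low in replicate 1 of both.

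Both hormone receptors were expressed at low to modest levels. Prlr (ENSRNOT00000080786) was counted 10, 13 and 14 times in the NP samples against 17, 18 and 25 times in the LP samples. Its level was 4.00 ± 0.60 CPM (SD, n = 2) in NP and 5.90 ± 0.67 CPM in LP. The LP values were all higher, but the log2 difference of 0.54 did not pass the test (standard error 0.28, adjusted p = 0.177 by edgeR), with a 95% interval from -0.24 to 1.32. At this depth, a change of Prlr between a small fall and a rise above 2-fold could not be told apart.

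Ghr (ENSRNOT00000046951) was covered by 63, 75 and 60 reads (NP) and by 106, 97 and 98 (LP). Every LP sample was above every NP sample. Its level rose to 31.4 ± 3.50 CPM in LP from 22.3 ± 0.27 CPM (SD, n = 2) in NP, a 1.37-fold change (log2 0.45, standard error 0.13, adjusted p = 0.0136 by edgeR). This call was lost with DESeq2 (adjusted p = 0.110), without replicate 1 of both groups (0.0810), without LP replicate 1 alone (0.0644) and without NP replicate 3 (0.0752), with the direction kept.

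Prolactin (Prl) was not analysed here. Growth hormone (Gh1) had 4, 2 and 7 reads (NP) and 9, 11 and 9 reads (LP). That was too few for the filter on low counts. Without the filter its adjusted p-value was 0.158 in edgeR.

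A sequence feature linked to these receptors was looked up next. STAT5 dimers bind the palindrome TTCNNNGAA, which reads the same on both strands. The RefSeq promoter tables (build GRCr8) gave 12 windows for the 10 genes, and the 250 bases before each transcription start were searched. Of all 33469 windows, 7.67% held at least 1 copy. Among the 10 genes, Prlr alone held a copy, in 1 of its windows. Among the other genes of the axis, 4 of the 62 with a window held one (Cish, Socs1, Rack1 and Prl). Cish, which encodes an inhibitor of STAT5 signalling, held 4 copies, starting 241, 230, 136 and 119 bases before the start. Only 2 of all windows (0.00598%) held 4 or more. The stretches of Prlr and Cish are printed because Prlr is the receptor of the axis and Cish had the most copies. Cish was chosen after its values were seen. Both lie on the plus strand of GRCr8, at chr2:60909468-60909506 and chr8:116850719-116850873, and capitals mark the palindrome.
Prlr: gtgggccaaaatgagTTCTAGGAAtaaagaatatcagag
Cish: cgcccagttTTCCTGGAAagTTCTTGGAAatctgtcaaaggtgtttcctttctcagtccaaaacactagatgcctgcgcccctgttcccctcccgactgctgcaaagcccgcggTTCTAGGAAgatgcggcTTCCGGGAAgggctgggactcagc
A match of letters is a description of the sequence and does not show that STAT5 binds there in the thyroid.

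The ligand Igf2 (ENSRNOT00000050760), a growth factor that is most active in the fetus, had the largest change of the 10 genes. It was counted 21, 31 and 32 times in the NP samples against 68, 77 and 82 times in the LP samples. All LP samples were above all NP samples, with no value in between. Its level rose to 22.6 ± 1.31 CPM in LP from 8.92 ± 2.00 CPM (SD, n = 2) in NP, a 2.43-fold change (log2 1.28, standard error 0.17, adjusted p = 1.44e-05 by edgeR). On the scale of log2(CPM + 1) the difference was 1.42 between the replicate 1 samples and 1.12 between replicates 2 and 3. The call was kept under all 15 alternative settings, between 1.15 and 1.36 on the log2 scale. Of the 17 skeletal muscle fibre markers tested, 16 moved in the same direction. The part of muscle in the change of Igf2, or of any other gene of the axis reported here, was not tested. Of 6 myogenic progenitor markers, 4 were in the tables, with a summed level of 0 to 1.64 CPM in NP and 10.1 to 11.6 CPM in LP.

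The genes whose pattern over the 6 samples was most like that of Igf2 were Fbln1, Svil and Bag3, each with a Pearson correlation of 0.999 in log2(CPM + 1). Fbln1 encodes fibulin 1 of the extracellular matrix, Svil an actin-binding protein and Bag3 a co-chaperone. Fbln1 was covered by 106, 146 and 147 reads (NP) and by 261, 291 and 297 (LP). Like Igf2, all 3 were lowest in NP replicate 1 and higher in each LP sample than in each NP sample. As a description, 534 of the 7942 genes compared had a Pearson correlation above 0.95 with Igf2 across these samples, so many genes with the same split between groups lie close behind.

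Igf1 (ENSRNOT00000081822), the main growth-promoting ligand after birth, had 23, 38 and 35 reads (NP) and 37, 70 and 63 reads (LP). The groups overlapped, since LP replicate 1, at 11.8 CPM, lay below NP replicate 2, at 12.4 CPM. Its level was 10.1 ± 2.65 CPM (SD, n = 2) in NP and 15.8 ± 5.59 CPM in LP, a log2 difference of 0.67 (standard error 0.22, adjusted p = 0.0315 by edgeR). The call did not hold with replicates 2 and 3 summed (adjusted p = 0.108), with DESeq2 (0.108), or without NP replicate 1 (0.111), NP replicate 3 (0.0611), LP replicate 2 (0.162) or LP replicate 3 (0.119).

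Of the IGF receptors, Igf2r rose in LP and Igf1r did not pass the test. Igf2r (ENSRNOT00000021840), the clearing receptor that also carries mannose 6-phosphate enzymes to lysosomes, was counted 300, 339 and 326 times in the NP samples against 482, 511 and 515 times in the LP samples. The groups were far apart relative to their spread, and the level rose to 153 ± 1.29 CPM in LP from 108 ± 1.27 CPM (SD, n = 2) in NP. This was a 1.41-fold change (log2 0.49, standard error 0.054, adjusted p = 1.73e-06 by edgeR), and the range over the alternatives was 0.48 to 0.51 on the log2 scale. Igf1r (ENSRNOT00000019267), the signalling receptor, was covered by 60, 92 and 113 reads (NP) and by 62, 68 and 90 (LP). The groups overlapped. Its level was 27.5 ± 8.61 CPM in NP and 21.6 ± 2.56 CPM in LP, with a log2 difference of -0.42 (adjusted p = 0.0912 by edgeR, 95% interval -0.90 to 0.069). With replicate number as a block the adjusted p-value became 0.00660, without NP replicate 1 it was 0.00805, and without replicate 1 of both groups 0.0168. Without NP replicate 3 the difference was -0.23 (adjusted p = 0.420), without LP replicate 2 it was -0.35 (0.251), and with replicates 2 and 3 summed it was -0.40 (0.164). The insulin receptor Insr, which binds IGF2 as well as insulin, had a log2 difference of 0.10 (adjusted p = 0.531 by edgeR), with an interval from -0.17 to 0.37.

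**Figure D2:**
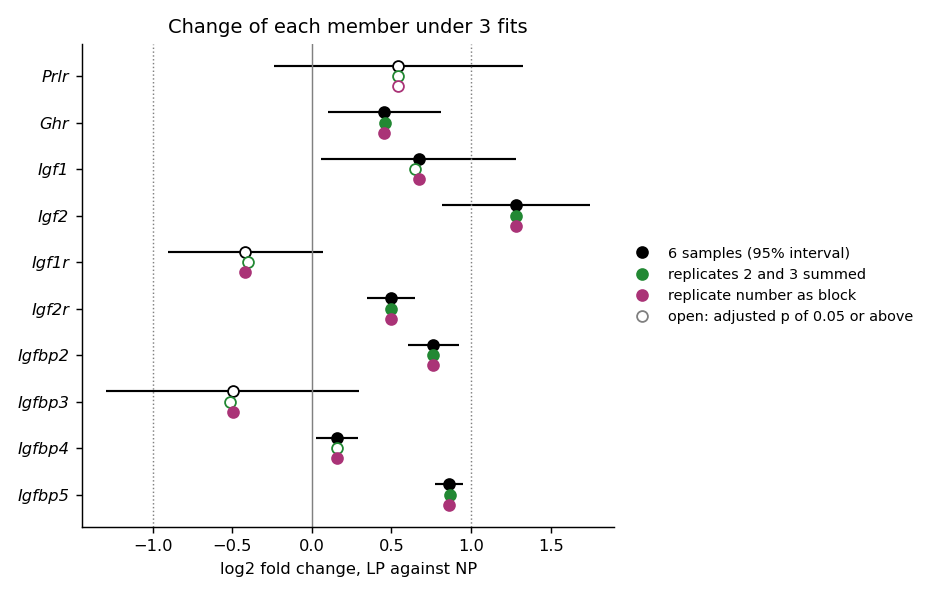
Log2 fold change of LP against NP for the 10 genes with all 6 samples (black, with 95% interval), with replicates 2 and 3 summed (green) and with the replicate number as a block (purple). Open circles did not pass an adjusted p of 0.05, and dotted lines mark a 2-fold change. The points of the 3 fits lie close together for each gene, and the calls of Igf1, Igf1r, Igfbp3 and Igfbp4 differ between fits.

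Of the binding proteins, Igfbp5 and Igfbp2 rose, Igfbp4 rose slightly and Igfbp3 did not pass the test. Igfbp5 (ENSRNOT00000023530), a matrix-bound protein, had 4036, 4472 and 4256 reads (NP) and 8323, 8732 and 8693 reads (LP). Its samples lay at 1397 to 1465 CPM in NP and at 2579 to 2659 CPM in LP. The means were 1437 ± 8.24 CPM (SD, n = 2) in NP and 2621 ± 52.9 CPM in LP. The fold change was 1.82 (log2 0.86, standard error 0.032, adjusted p = 8.28e-13 by edgeR). In log2(CPM + 1), the difference was 0.88 in replicate 1 and 0.85 in replicates 2 and 3.

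Igfbp2 (ENSRNOT00000023068), a circulating binding protein with a preference for IGF2, was counted 396, 442 and 412 times in the NP samples against 760, 809 and 784 times in the LP samples. The groups did not overlap. Its level rose to 239 ± 4.64 CPM in LP from 141 ± 1.08 CPM (SD, n = 2) in NP, a 1.70-fold change (log2 0.76, standard error 0.057, adjusted p = 1.37e-08 by edgeR). Igfbp2 and Igfbp5 kept their calls in all 15 alternatives.

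Igfbp4 (ENSRNOT00000014153), which blocks IGF action until it is cleaved by the protease PAPPA, was covered by 1433, 1522 and 1476 reads (NP) and by 1793, 1857 and 1839 (LP). The groups were close but did not overlap, at 502 ± 14.6 CPM (SD, n = 2) and 560 ± 17.5 CPM. The 1.12-fold rise (log2 0.16, standard error 0.047, adjusted p = 0.0180 by edgeR) was lost with replicates 2 and 3 summed (adjusted p = 0.110). It was also lost without NP replicate 2 (0.0619), NP replicate 3 (0.102) or LP replicate 1 (0.0688).

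Igfbp3 (ENSRNOT00000088355), the main IGF carrier of the blood, had 161, 412 and 364 reads (NP) and 96, 324 and 316 reads (LP). Within each group replicate 1 was far below the other two samples. Its level was 92.4 ± 49.3 CPM (SD, n = 2) in NP and 62.8 ± 45.4 CPM in LP, and the groups overlapped. The log2 difference of -0.50 did not pass the test (standard error 0.29, adjusted p = 0.229 by edgeR, 95% interval -1.29 to 0.30). It was -0.89 between the replicate 1 samples and -0.42 between replicates 2 and 3, in log2(CPM + 1). With the replicate number as a block, Igfbp3 was called lower in LP (adjusted p = 7.21e-11), as it was without NP replicate 1 (log2 -0.78, adjusted p = 0.0186) and without replicate 1 of both groups (log2 -0.43, adjusted p = 0.000121). Leaving out any other single sample gave no call. The difference was smaller without LP replicate 1 (-0.15, adjusted p = 0.622), NP replicate 2 (-0.28, 0.608) or NP replicate 3 (-0.40, 0.444). It was larger without LP replicate 2 (-0.73, 0.144) or LP replicate 3 (-0.71, 0.170). With the block, the estimated biological variation between samples (edgeR, coefficient) was 0.0131 instead of 0.0645, so its p-values rest largely on counting noise.

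Replicate 1 was also low for other genes of the same family. Igfbp1, a binding protein known from liver and decidua, had 0 reads in replicate 1 of NP and of LP. In the other samples it had 127 and 109 reads in NP and 151 in both LP samples. Igfbp6, another carrier that prefers IGF2, was counted 68, 208 and 146 times in the NP samples against 71, 189 and 164 times in the LP samples. Neither passed edgeR's test of LP against NP (adjusted p = 0.860 and 0.762).

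For Igfbp3, replicates 2 and 3 exceeded replicate 1 by 251 and 203 reads in NP and by 228 and 220 in LP. Each of the 4 gaps was thus of similar size in both groups. Genes with a log2(CPM + 1) more than 0.5 above replicate 1 in both groups made up 1.80% of the 11738 tested. Of the 10 genes Igfbp3 alone was among them, and of the 64 other axis genes tested, Igfbp1, Igfbp6 and Adamts1. Of 8 tested markers of pericytes and smooth muscle, 4 were (Acta2, Myh11, Tagln and Cnn1), and of 7 tested fibroblast markers, 4 were (Col1a1, Col3a1, Pdgfra and Postn). Myh11, the smooth muscle myosin, was covered by 266, 1872 and 1897 reads (NP) and by 220, 2110 and 1990 (LP), so that replicates 2 and 3 exceeded replicate 1 by 1606 and 1631 reads in NP and by 1890 and 1770 in LP. The summed level of the pericyte and smooth muscle list was 404 CPM in NP replicate 1 and 1840 to 1889 CPM in NP replicates 2 and 3. The list holds Des, which skeletal muscle fibres express too. In LP the sum was 1004 CPM in replicate 1 and 2377 to 2532 CPM in the others. The part of these cells in the levels of Igfbp1, Igfbp3 and Igfbp6 was not tested. Whether the libraries numbered 2 and 3 hold reads or material in common across the groups was not tested either. The levels of these 3 genes and of Adamts1, and their differences between LP and NP, carry that doubt. The question concerns whole libraries, so the levels and p-values of the other genes are not free of it.

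**Figure D3:**
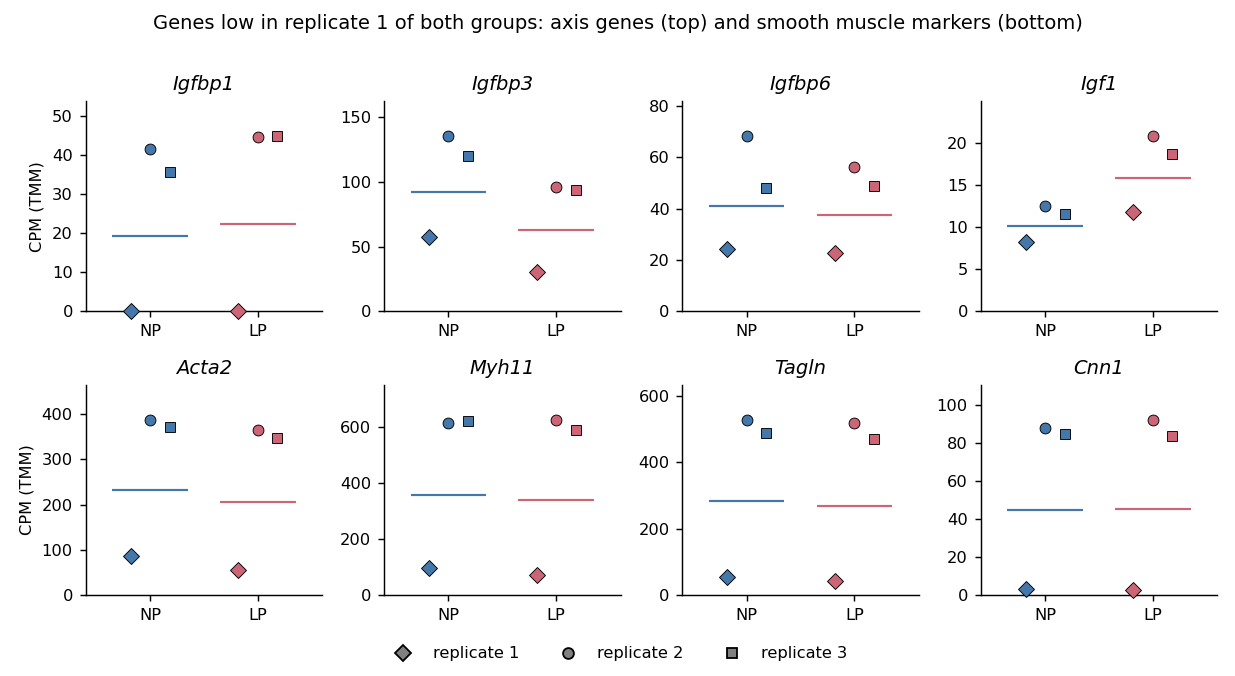
Level in each sample, in TMM-scaled CPM, of Igfbp1, Igfbp3, Igfbp6 and Igf1 (top) and of the smooth muscle markers Acta2, Myh11, Tagln and Cnn1 (bottom), with symbols, colours and mean lines as in the plot of the 10 genes. In every panel the diamond of replicate 1 lies below the circle and square of its own group, and Igfbp1 is at 0 in both replicate 1 samples.

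Other genes of the axis were taken from 6 lists by role. Of 80 genes, 72 were in the tables and 64 were tested. In edgeR's test 18 rose and 6 fell, which is 37.5% beside 27.0% of all genes, with a median log2 fold change of 0.062. Of these 24 genes, 12 stayed below an adjusted p of 0.05 in every alternative that gave a value.

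Among the other ligands, binding proteins and proteases, 1 of 10 tested genes rose and 1 fell, beside 15.3% and 11.7% of all tested genes. Pappa, the protease that cleaves IGFBP4, had 10, 5 and 21 reads (NP) and 31, 31 and 32 reads (LP). Its values in NP were scattered and those in LP nearly equal, with a 2.34-fold rise (log2 1.23, standard error 0.33, adjusted p = 0.00961 by edgeR). This was lost without NP replicate 2 (log2 0.83, adjusted p = 0.0578). Igfbp7, which binds IGFs weakly and is made by endothelial cells, was counted 2759, 2897 and 2832 times in the NP samples against 2524, 2788 and 2765 times in the LP samples. In CPM all LP samples were below all NP samples, at 815 ± 12.1 (SD, n = 2) against 963 ± 33.2. Its log2 difference of -0.22 passed the test (adjusted p = 0.000450 by edgeR). Of the 7 endothelial markers tested, 5 fell as well, beside 11.7% of all tested genes, while Cdh5 and Vwf did not pass the test. The list had a summed level of 1170 to 1221 CPM in NP and 1002 to 1016 CPM in LP. Their part in the fall of Igfbp7 was not tested.

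Among the other receptors and receptor partners, 3 of 8 tested genes rose and none fell, beside 15.3% and 11.7% of all tested genes. Grb14, an adaptor that inhibits the insulin receptor, was covered by 4, 11 and 11 reads (NP) and by 55, 43 and 42 (LP). The groups were widely apart, with a 4.81-fold rise (log2 2.27, standard error 0.29, adjusted p = 1.11e-05 by edgeR). The related adaptor Grb10, which is imprinted and inhibits the insulin and IGF1 receptors, had 60, 86 and 84 reads (NP) and 115, 140 and 107 reads (LP). It rose 1.42-fold (adjusted p = 0.00843 by edgeR), a call lost without LP replicate 2 (0.0587) and without replicate 1 of both groups (0.0557). Lrp1, an endocytic receptor, rose 1.22-fold (adjusted p = 0.00514 by edgeR).

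Of the 16 tested genes of JAK-STAT signalling after the prolactin and growth hormone receptors, 7 rose and 1 fell, with a median log2 fold change of 0.19. Over all tested genes, 15.3% rose and 11.7% fell. The 2 largest rises were those of the feedback inhibitors Cish and Socs2, both known targets of STAT5. Cish was counted 102, 76 and 91 times in the NP samples against 186, 186 and 188 times in the LP samples. The LP samples were nearly equal and all above NP, a 1.87-fold rise (log2 0.91, standard error 0.11, adjusted p = 7.78e-06 by edgeR). Its promoter stretch is the one printed above.

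Socs2, an inhibitor of growth hormone receptor signalling, was covered by 60, 57 and 51 reads (NP) and by 97, 132 and 122 (LP). No LP sample overlapped NP, and the level rose to 34.3 ± 4.72 CPM in LP from 19.6 ± 2.64 CPM (SD, n = 2) in NP. The fold change was 1.88 (log2 0.91, standard error 0.13, adjusted p = 5.14e-05 by edgeR). Cish and Socs2 kept their calls in all 15 alternatives. The related inhibitors did not pass. Socs1 had a log2 difference of 0.30 (adjusted p = 0.402 by edgeR), and Socs3 had 5 to 15 reads per NP sample and 7 to 21 per LP sample, too few for the filter.

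The kinase Jak2 had 143, 157 and 153 reads (NP) and 245, 236 and 230 reads (LP). It rose 1.41-fold (log2 0.50, standard error 0.078, adjusted p = 9.80e-05 by edgeR), while Jak1 had a log2 difference of -0.018 (adjusted p = 0.876). Stat5b, with 66, 72 and 93 reads (NP) and 102, 140 and 118 reads (LP), rose by 0.49 on the log2 scale (adjusted p = 0.0101 by edgeR). It was lost without NP replicate 2 (0.0552), without LP replicate 2 (0.0675) and with DESeq2 (0.0573). Stat5a had a log2 difference of 0.38 at the edge of the cutoff (adjusted p = 0.0371 by edgeR), and it passed in 6 of 15 alternatives, with values up to 0.270. The libraries without which it was lost were LP replicates 1, 2 and 3 (0.0553, 0.0836 and 0.115) and NP replicates 1 and 3 (0.104 and 0.108). The phosphatase gene Ptpn11 rose 1.34-fold (adjusted p = 0.000155 by edgeR). Shc1, an adaptor to the Ras pathway, fell by 0.29 on the log2 scale (adjusted p = 0.000872 by edgeR).

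**Figure D4:**
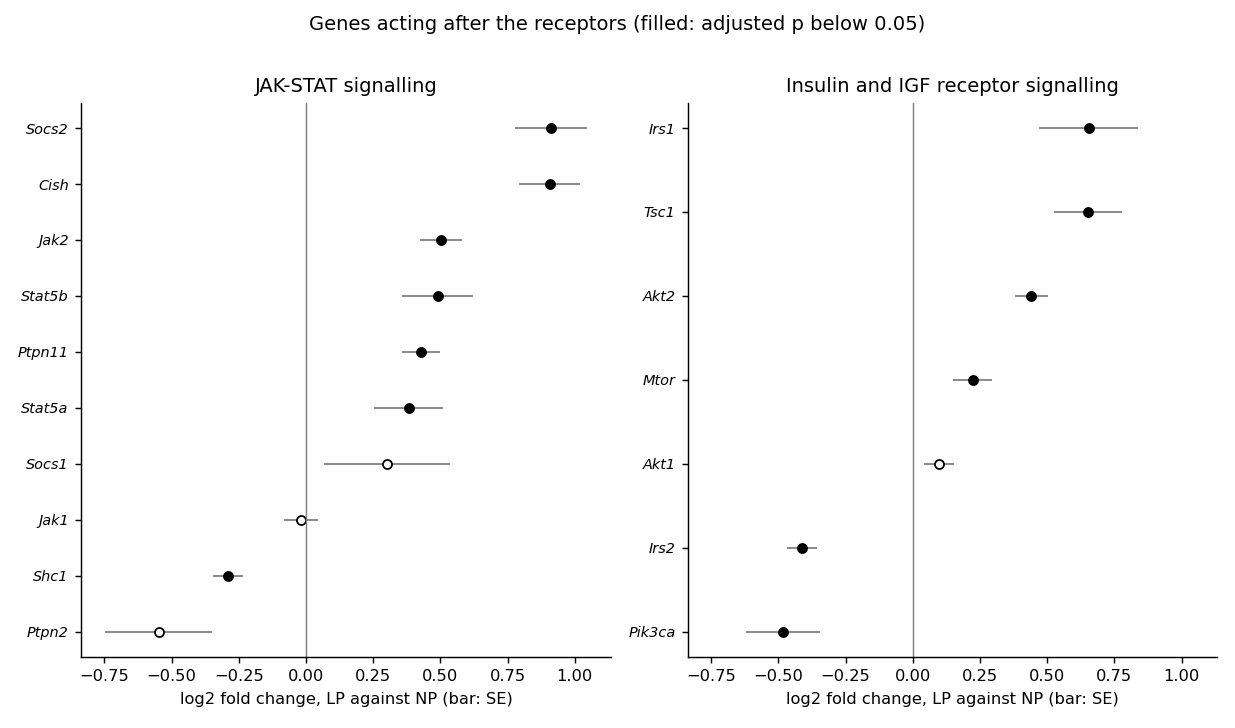
Log2 fold change of LP against NP (points) with its standard error (bars) for 10 tested genes of JAK-STAT signalling (left) and 7 of insulin and IGF receptor signalling (right) that are named in the text. Filled points passed an adjusted p of 0.05, and Socs2 and Cish, both at 0.91, lie at the top of the left panel.

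After the insulin and IGF receptors, 4 of 23 tested genes rose and 2 fell, which is 26.1% beside 27.0% of all genes. The 2 main receptor substrates differed in direction. Irs1 was counted 28, 39 and 29 times in the NP samples against 45, 60 and 63 times in the LP samples, a 1.57-fold rise (adjusted p = 0.0131 by edgeR). It was lost with DESeq2 (0.0934), without NP replicate 3 (0.0649) and without LP replicate 3 (0.0680). Irs2 was covered by 379, 399 and 405 reads (NP) and by 316, 336 and 334 (LP). It fell by 0.41 on the log2 scale (standard error 0.056, adjusted p = 2.13e-05 by edgeR), from 134 ± 2.58 CPM (SD, n = 2) to 100.1 ± 1.13 CPM, with the groups apart.

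The kinase Akt2 rose 1.36-fold and Tsc1, an inhibitor of the mTOR complex, 1.57-fold (adjusted p = 3.26e-05 and 0.000767 by edgeR). Akt1 did not pass (log2 0.097, adjusted p = 0.216). Mtor itself had a log2 difference of 0.22 (adjusted p = 0.0272 by edgeR) that was lost in 7 of 15 alternatives, with values up to 0.224. Among these were those without NP replicate 2 (0.146), NP replicate 3 (0.0771), LP replicate 1 (0.110) or LP replicate 2 (0.0690). Pik3ca, the catalytic subunit of phosphoinositide 3-kinase, fell by 0.48 on the log2 scale (adjusted p = 0.0150 by edgeR). It was lost with DESeq2 (0.109) and without NP replicate 3 (0.0694), LP replicate 2 (0.0780) or LP replicate 3 (0.0510).

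Igf2, Igf2r and Grb10 are imprinted in rodents. Of 12 other imprinted growth genes listed, 9 were in the tables and 6 were tested, and 3 rose and 1 fell, none past 2-fold, beside 27.0% of all tested genes that changed in either direction. Cdkn1c, an inhibitor of the cell cycle, had 37, 35 and 40 reads (NP) and 18, 34 and 20 reads (LP). Its log2 difference was -0.79 (adjusted p = 0.0177 by edgeR), lost with DESeq2 (0.0896) and without NP replicate 3 (0.0552), LP replicate 1 (0.0568), LP replicate 3 (0.0848) or replicate 1 of both groups (0.0871). Plagl1, a transcription factor that binds near Igf2, had log2 differences of 0.0047 between the replicate 1 samples and 0.78 between replicates 2 and 3, in log2(CPM + 1). Its fitted difference of 0.53 (adjusted p = 0.0321 by edgeR) was lost without NP replicate 2 (0.117), NP replicate 3 (0.169), LP replicate 2 (0.0797) or LP replicate 3 (0.120), with replicates 2 and 3 summed (0.116) and with DESeq2 (0.144). The small rises of Mest, at 0.33, and of Gnas, which encodes the stimulatory G protein of the TSH receptor, at 0.12 (adjusted p = 0.0340 and 0.0238 by edgeR), were both lost without NP replicate 2 (0.147 and 0.146), NP replicate 3 (0.115 and 0.109) or LP replicate 1 (0.0846 and 0.107), and with replicates 2 and 3 summed (0.0899 and 0.148). Mest was also lost with DESeq2 (0.226) and without LP replicate 2 (0.0906) or LP replicate 3 (0.0522). Peg3, a zinc finger gene, had a log2 difference of -0.12 (adjusted p = 0.158 by edgeR). Of the Igf2 mRNA binding proteins, Igf2bp2 was the 1 tested. It was counted 27, 35 and 31 times in the NP samples against 21, 22 and 25 times in the LP samples, and its log2 difference of -0.60 (adjusted p = 0.0437 by edgeR) passed in 4 of 14 alternatives, with values up to 0.277 with DESeq2. It was lost without any 1 of the 6 samples, at 0.0513 (NP replicate 1) to 0.144 (NP replicate 2).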

How the data were processed

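Thyroid RNA of 3 NP and 3 LP rats was sequenced. Per the labels and the study's methods, polyA+ TruSeq libraries were run on an Illumina HiSeq instrument, reads were mapped to rn5 with TopHat 1.4.0 and counted with HTSeq on Ensembl release 81. The authors deposited raw read counts per gene, without normalization. The strand setting of the counting is not given in the sources used here, so reads of antisense or overlapping genes cannot be told apart.

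LP was compared with NP by edgeR 4.0.16 (R 4.3.3) with TMM, edgeR's default filter, the quasi-likelihood test and Benjamini-Hochberg adjustment over 11738 genes. Standard errors were taken as the size of the log2 change over the root of the F value, and 95% intervals use 4 degrees of freedom. Genes below the filter were read from a fit without it. DESeq2 1.42.0 was an alternative. The steps were tested on simulated data.

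The labels name no pairing, so the main test had no block and the replicate number served as a block only in alternatives. Same-numbered samples deviated together from their group means (correlations 0.483, 0.216 and 0.183). Replicates 2 and 3 also correlated across numbers (0.207 and 0.209). Members and lists were chosen by role, with earlier results of these data known. Of the other axis genes, those past a 2-fold change, those with the smallest adjusted p per list and key genes of the axis were named, and Jak1, Akt1, Socs1, Socs3, Igfbp6, Adamts1 and Peg3 were added after their values were seen. Older symbols were matched through the RefSeq gene table, which gave Rack1. The number of other per-sample columns not used was 0. Prl and other listed genes without a row were not analysed here, and some listed genes are counted but not reported by name.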

Additional observations from a re-analysis of the deposited data

How the results depend on the processing

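Igf2, Igf2r, Igfbp2 and Igfbp5 kept direction and call in all 15 alternatives, and no member changed direction. The calls of Ghr, Igf1 and Igfbp4 were each lost under at least 1 alternative, and the cause was not tested. Of 10 members, 7 passed an adjusted p of 0.05 in edgeR's test. The number was 5 with DESeq2 or with replicates 2 and 3 summed, and 9 with the replicate number as a block. It was 8 with replicate 1 of both groups left out, an alternative chosen after seeing the data. The share of all tested genes that passed moved as well. It was 27.0% in the main test, 20.6% with replicates 2 and 3 summed, 32.2% with the block and 23.8% without replicate 1. With each sample left out in turn the number of members lay between 4 and 8, and the lowest value was that without NP replicate 3. The number past a 2-fold change was 1 under every setting. The block changed the calls of Igf1r and Igfbp3 and of no other member, and it changed those of Htra1, Rack1 and Ptpn2, among others (adjusted p = 0.0167, 0.000120 and 0.0175 with the block) among the other axis genes.

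Of the other axis genes 24 passed in edgeR, 15 with DESeq2 and 16 to 24 with each sample left out. Over all genes 3168 passed, 1922 with DESeq2 and 2586 to 2887 with each sample left out. With a 2-fold change as well, 638 passed, 315 when genes averaging under 50 reads were dropped, which tests fewer genes, and 646 to 693 with each sample left out. That filter left out Prlr and Igf1.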
